A study of Mus musculus with 54 samples.

Results

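miR-504 is a microRNA whose hairpin lies inside an intron of Fgf13 on the mouse X chromosome, and its level was followed library by library in liver and epididymal white adipose tissue (eWAT). Both mature names of the hairpin, mmu-miR-504-5p and mmu-miR-504-3p (written below without the species prefix), were taken from the liver and eWAT count tables, 2 of 1966 mature names in each. They were selected on measured values, namely a rise of miR-504-5p in eWAT under high fat and an incomplete return after the switch to low fat. The diet contrasts of miR-504 are therefore given as a description and carry no test.

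The animals were wild-type male C57BL/6 mice of the F0 generation, all fed chow until 6 weeks of age and sampled at 24 weeks. The LF group ate low-fat food throughout the following 18 weeks and the HF group high-fat food throughout the same 18 weeks. The HFLF group spent the first 9 weeks on high-fat and the last 9 on low-fat food. Each diet had 6 libraries per tissue. Whether each replicate is a different animal is not stated in the labels, and p-values then reflect the spread among libraries, which may be technical. The column codes C and R were read as LF and HFLF, a reading that the sources do not define. Library totals ran from 7481038 to 13022536 counts in eWAT and from 7017730 to 14394584 in liver. Summed hepatocyte miRNAs (miR-122-5p, miR-192-5p and miR-802-5p) lay between 329700 and 653200 CPM (counts per 1000000 after scaling by the trimmed mean of M-values, TMM) in liver, against 168 to 9250 in eWAT. A list of 9 adipocyte miRNAs summed to 69870 to 417700 CPM in eWAT and to 46610 to 58090 in liver. In eWAT, 6 epithelial miRNAs of the miR-200 and miR-205 families had their highest sums in LF 4, LF 5 and HFLF 4, at 8534, 4177 and 2019 CPM. LF 3 followed with 1337 CPM and LF 2 with 484, and the remaining libraries held 74.1 to 146.9. Fits without LF 4, LF 5 and HFLF 4 thus keep LF 3 and LF 2.

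MicroRNAs are cut from hairpins in primary transcripts, and 1 arm, or sometimes both, is loaded into Argonaute, where bases 2 to 8, the seed, pair with target mRNAs. A microRNA in an intron can be made from the transcript of its host gene or from a promoter of its own. Fgf13 encodes a fibroblast growth factor homologous factor, an intracellular protein best known for binding voltage-gated sodium channels in neurons. Adipose tissue contains adipocytes, stromal and vascular cells, and leukocytes that accumulate in obesity. In bulk tissue, fewer cells of a type and less RNA per cell cannot be told apart.

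The mature 5p sequence and its hairpin, from RefSeq on GRCm38.p6, show the seed and the arm that carried nearly all counts. In the first line capitals mark the seed, and in the second they mark the 5p arm.
miR-504-5p: aGACCCUGgucugcacucuauc
Mir504 hairpin: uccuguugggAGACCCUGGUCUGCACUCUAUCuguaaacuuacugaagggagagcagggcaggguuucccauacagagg

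The hairpin of 79 bases lies at chrX:59097658-59097736 on the minus strand, and the mature 5p at chrX:59097705-59097726. The arm covers bases 11 to 32 of the hairpin, and 19 of its 22 bases were paired in the predicted fold, which had a free energy of -45.0 kcal/mol. None of the 1738 mature mouse entries of the RefSeq table other than miR-504-5p had the seed GACCCUG. The nearest other mature sequence, miR-7068-3p, was 7 edits away, and the longest run shared with any other was 10 bases, with miR-6367. Fgf13 spans chrX:59062145-59568071 on the same strand, with 9 annotated transcripts in GENCODE M21. Of these, 4 span the hairpin, which overlapped an exon of none and lies in intron 3 of the transcripts with 5 exons and intron 4 of the one with 6. Fgf13 mRNA was not measured here.

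In eWAT, miR-504-5p was low in LF, high in every HF library and intermediate in most HFLF libraries. The LF libraries 1 to 6 held 11.6, 4.81, 4.14, 8.75, 52.9 and 24.2 CPM. The HF libraries held 169, 205, 137, 119.6, 163 and 191 CPM. The HFLF libraries held 104.7, 86.5, 124, 13.1, 65.1 and 106 CPM. LF and HF did not overlap: the lowest HF library, HF 4, was above the highest LF library, LF 5. After the switch, 5 of 6 HFLF libraries stayed above every LF library, and 5 of 6 lay below every HF library. The exceptions were different libraries. HFLF 4 lay among the LF libraries, and HFLF 3 lay just inside the HF range. How many of the 571 miRNAs fitted in eWAT separate the diets in these ways is not given here. These separations thus do not set miR-504-5p apart.

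**Figure D1:**
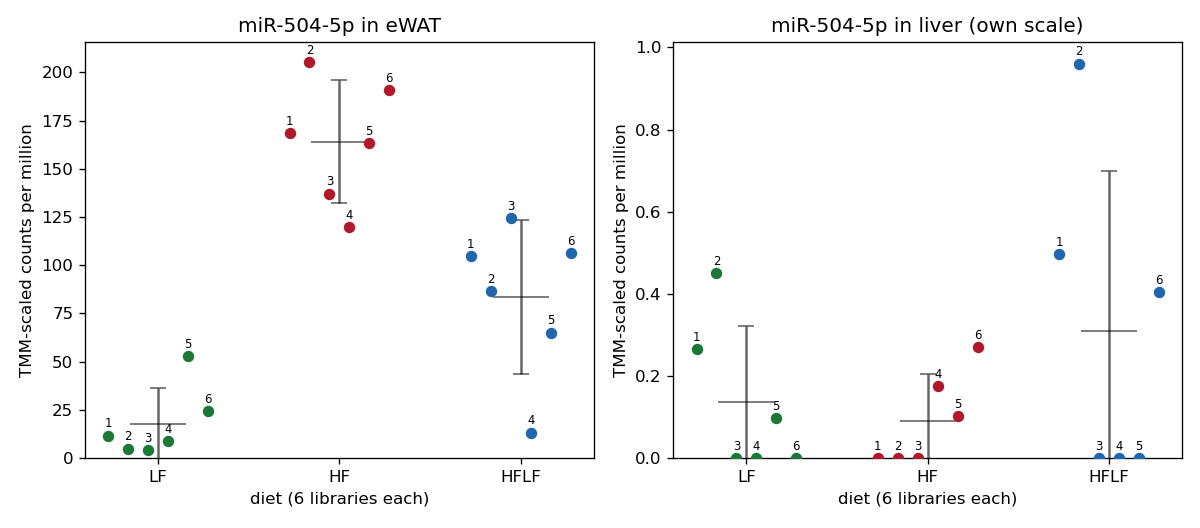
TMM-scaled CPM of miR-504-5p in each eWAT library (left) and liver library (right, on its own scale) by diet; numbers are replicate numbers, horizontal bars the means and vertical bars 1 SD of 6 libraries, cut at 0. In eWAT all 6 HF libraries lie above all LF libraries, and HFLF 4 is the only HFLF library within the LF range.

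The means were 17.7 ± 18.7 CPM in LF, 164 ± 32.1 in HF and 83.4 ± 39.9 in HFLF (SD, n = 6 each). The edgeR log2 fold change was 3.21 (SE 0.60, 9.26-fold) for HF against LF, the highest of 571 miRNAs fitted. For HFLF against HF it was -0.98 (SE 0.55), and for HFLF against LF 2.23 (SE 0.57, 4.71-fold), again the highest of 571. In HFLF against LF edgeR called 0 of all 571 miRNAs at a Benjamini-Hochberg adjusted p below 0.05, and DESeq2 called 10. These 3 contrasts share libraries pairwise and chose the miRNA, so their sizes describe it and support nothing further. Without LF 4, LF 5 and HFLF 4, the log2 fold changes were 3.91, -0.77 and 3.13. The HFLF mean was 97.4 ± 22.5 CPM without HFLF 4 (n = 5), and the LF mean 10.7 ± 8.15 CPM without LF 5 (n = 5).

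The TMM factors themselves moved with diet in eWAT, from 0.765 to 0.986 in LF, 1.042 to 1.238 in HF and 0.921 to 1.03 in HFLF. Scaling by total counts moved the median over all 571 miRNAs in HF against LF from 0.03 to 0.32 on the log2 scale, and that of miR-504-5p to 3.50.

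The raw counts behind these levels were large enough that counting error was small beside the spread between libraries. They ran from 41 to 443 reads in LF, 1270 to 2577 in HF and 139 to 1259 in HFLF. Ranked by count within its library, miR-504-5p stood at position 193 to 384 in LF, 125 to 142 in HF and 136 to 282 in HFLF.

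The spread within a diet also differed. On the log2 CPM scale the SD of miR-504-5p was 1.38 in LF, 0.29 in HF and 1.20 in HFLF, where the median SD of the 571 miRNAs was 0.43, 0.48 and 0.34. In LF 90.7% of them had a smaller SD than miR-504-5p, in HFLF 92.6% and in HF 21.5%. The highest LF library exceeded the lowest by 12.8-fold and the highest HFLF library by 9.50-fold, against 1.72-fold within HF. The HFLF spread rested on HFLF 4: without it the SD was 0.36, beside a median of 0.32 over all miRNAs. Without LF 5 the LF SD was 1.00, beside 0.44.

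The other arm, miR-504-3p, was close to the limit of detection. It had 0, 0, 0, 1, 2 and 0 reads in LF libraries 1 to 6, 4, 1, 0, 14, 1 and 6 in HF, and 1, 0, 5, 0, 0 and 0 in HFLF. It was thus counted in 9 of 18 eWAT libraries, most often in HF, and it did not pass the filter on low counts. Over the 6 libraries of a diet it summed to 3 reads in LF, 26 in HF and 6 in HFLF. HF 4 alone held 14 of the 26 HF reads.

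The 3p arm made up 0.324% of miR-504 reads in LF (95% Clopper-Pearson interval 0.0668 to 0.943), 0.267% in HF (0.174 to 0.391) and 0.127% in HFLF (0.0465 to 0.276). Intervals cover counting error only, since reads are not independent molecules, and arm use between diets is given as a description with no test. The mean log2 ratio of 5p to 3p reads, with 0.5 added to each, was 7.14 ± 0.963 in LF, 9.14 ± 1.83 in HF and 9.50 ± 1.25 in HFLF (SD, n = 6). Where the 3p arm had 0 reads, that ratio is set by the added 0.5 and the 5p count, so it follows the level of the 5p arm.

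**Figure D2:**
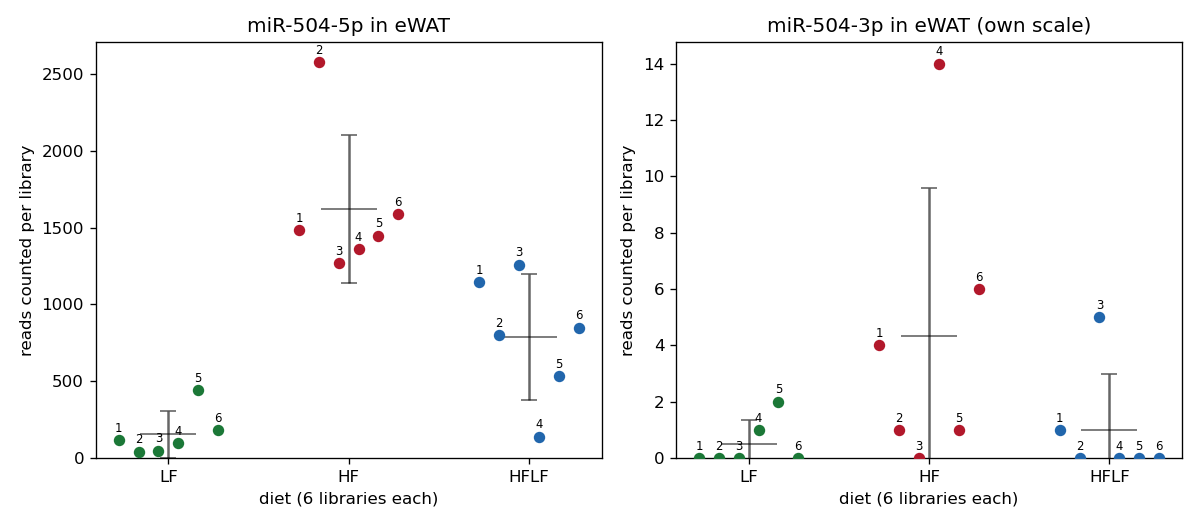
Reads counted for the 5p arm (left) and the 3p arm (right, on its own scale) of miR-504 in each eWAT library by diet; horizontal bars are means and vertical bars 1 SD of 6 libraries, cut at 0. The 5p arm reaches 2577 reads and the 3p arm 14, and 9 of 18 libraries hold no 3p read.

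In liver miR-504 was almost absent. The 5p arm had 4, 3, 0, 0, 1 and 0 reads in LF libraries 1 to 6, 0, 0, 0, 2, 1 and 3 in HF, and 4, 8, 0, 0, 0 and 3 in HFLF. These values sit at or near the limit that a count of 0 allows, 0.199 to 0.451 CPM, the diets overlapped, and no diet fold is given. The 3p arm had 0 reads in all 18 liver libraries. Liver offered no reading of whether diet moved miR-504 there, since the filter on low counts removed both arms.

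The level in eWAT was far above that in liver in each diet. This is a description with no test, since the miRNA was selected on its eWAT values and passed the filter on low counts through eWAT alone. Per total count, eWAT exceeded liver by 109-fold in LF (95% exact counting interval 55.3 to 254), 1739-fold in HF (799 to 4740) and 271-fold in HFLF (164 to 484). The joint edgeR fit of 36 libraries gave log2 fold changes of 5.60 (SE 0.82), 9.26 (SE 0.89) and 6.80 (SE 0.79) with TMM. For background, 37.1% of the 595 miRNAs in that fit were called higher in eWAT in LF, 41.3% in HF and 37.3% in HFLF, at a Benjamini-Hochberg adjusted p below 0.05. Scaling by total counts called 422, 417 and 417 of the 595 higher, and moved the median log2 fold change in HF from 0.37 to 1.75.

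The nearest miRNA locus compared was miR-505, also on X and 1.297 Mb from Mir504, at chrX:60394416-60394473. In eWAT, miR-505-3p held 5.71 ± 1.12 CPM in LF, 11.2 ± 1.92 in HF and 7.91 ± 1.36 in HFLF (SD, n = 6), with all 6 HF libraries above every LF library. Its rise in HF had a log2 fold change of 0.97 (SE 0.17, edgeR adjusted p = 0.000497). In HF against LF, 19.6% of the 571 miRNAs were called higher and 15.2% lower. miR-505-5p rose with a log2 fold change of 1.09 (SE 0.33, edgeR adjusted p = 0.0172), and 4 of 6 HF libraries lay above every LF library. Without LF 4, LF 5 and HFLF 4 that call ended (0.86, edgeR adjusted p = 0.0795). How many of the 571 miRNAs had HF libraries above every LF library is not given here, so these separations do not set miR-505 apart.

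From HF to HFLF, miR-505-3p fell by 0.50 on the log2 scale (SE 0.17, edgeR adjusted p = 0.0369), a call lost in 13 of 19 alternatives, where the adjusted p over all of them ran from 0.00729 to 0.181. In that contrast 9.63% of miRNAs were called higher and 16.3% lower. miR-505-5p had -0.84 (adjusted p = 0.0688). Of the 595 miRNAs in the joint fit, 167 were called lower in eWAT in LF, 186 in HF and 166 in HFLF. Against liver, the log2 fold change of eWAT with TMM ran over the diets from -2.01 to -1.61 for miR-505-3p and from -1.69 to -1.01 for miR-505-5p (all 6 called lower in eWAT). With total counts 1 of these 6 calls was left, that of miR-505-3p in LF (-0.80), and miR-505-5p in HF turned to 0.38, so which tissue held more miR-505 depended on the scaling. In liver itself, neither arm of miR-505 was called in HF against LF, where 5.69% of 422 miRNAs were. Both had the same direction there as in eWAT. The log2 fold change was 0.52 for miR-505-3p (SE 0.18, edgeR adjusted p = 0.0806) and 0.34 for miR-505-5p (SE 0.28, edgeR adjusted p = 0.565).

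Among the 153 other mature names encoded on X, 66 passed the filter in eWAT, and 5 X-linked names are also encoded on another chromosome. In HF against LF, 15 of the 66 were called higher and 1 lower, beside 19.6% and 15.2% of all miRNAs. Their median log2 fold change was -0.05, and that of all 571 miRNAs 0.03. The called members with the highest fold changes were miR-222-3p (2.42), miR-221-3p (2.21) and miR-221-5p (1.89), products of a neighbouring pair of hairpins that is known to restrain the cell cycle inhibitor p27. They were named after their values were seen. Scaling by total counts called 26 of the 66 higher, beside 205 of all 571. The 1 called lower became 0 to 7 when single libraries were left out, with 7 without HF 1, 2 without LF 1 or LF 2, and 0 without LF 4, HF 2, HF 4 or HF 5. In HFLF against HF, edgeR called 12 of the 66 lower and 0 higher, beside 16.3% and 9.63% of all miRNAs. At an unadjusted p below 0.05, 6 were higher, and DESeq2 called 3 higher. The median was -0.35, and that of all miRNAs -0.09. The 12 became 7 without HF 3 or without HFLF 5.

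**Figure D3:**
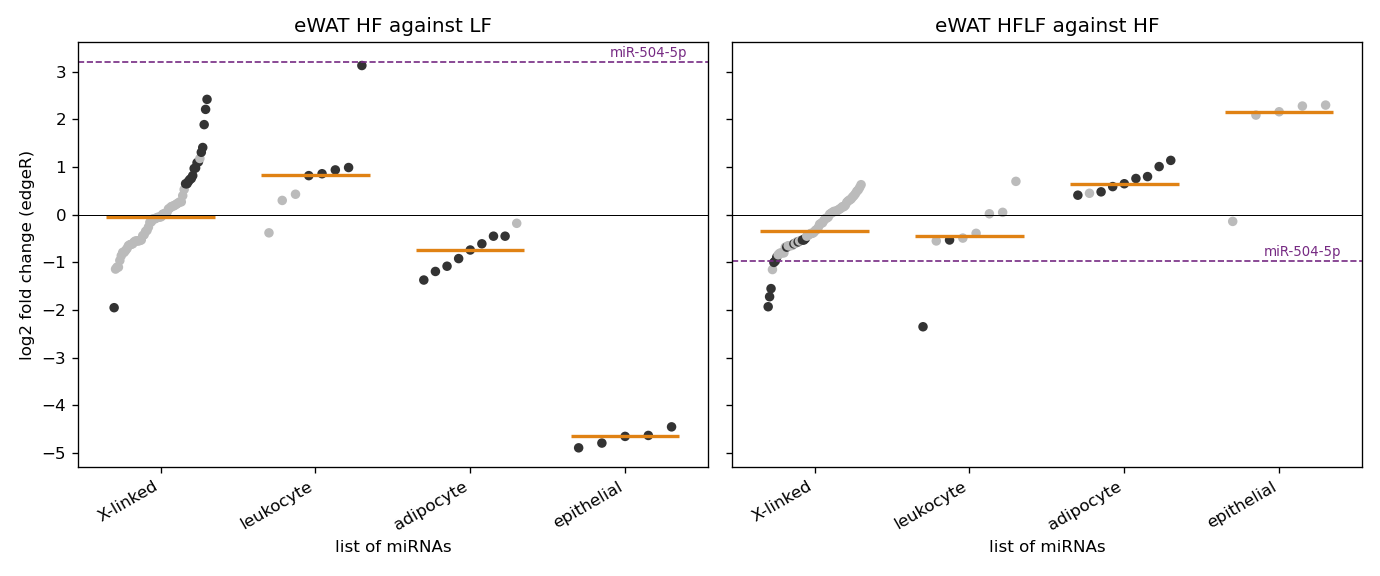
Log2 fold changes in eWAT for HF against LF (left) and HFLF against HF (right), 1 point per tested miRNA of each list; dark points passed an adjusted p of 0.05, grey points did not, orange bars are list medians and the dashed line is miR-504-5p. In HF against LF miR-504-5p, selected on this contrast, has the highest value of all fitted miRNAs (3.21), so every list member lies below its line. The nearest is miR-342-3p of the leukocyte list at 3.13.

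Markers of other cells moved with diet in the same libraries, where 19.6% of all miRNAs were called higher in HF against LF and 15.2% lower. Of 8 leukocyte miRNAs tested, 5 were called higher and 0 lower in HF against LF (edgeR; also 0 at an unadjusted p below 0.05 and 0 by DESeq2), with a median log2 fold change of 0.84. Their sum ran from 1885 to 2733 CPM in LF, 2468 to 4876 in HF and 2290 to 3759 in HFLF. miR-223-3p is in this list and on X, so both counts hold it. Of 9 adipocyte miRNAs, 8 were called lower (median -0.74), and 4 with total counts. The adipocyte sum ran from 214700 to 417700 CPM in LF, 69870 to 178800 in HF and 173200 to 255600 in HFLF. Its member miR-143-3p alone had means of 182300, 70510 and 122800 CPM. The sum is thus weighted to 1 miRNA and was not shown to measure adipocyte content. Of 5 epithelial miRNAs tested, 5 were called lower (median -4.65). The epithelial sum ran from 102.3 to 8534 CPM in LF, 78.5 to 146.9 in HF and 74.1 to 2019 in HFLF. LF 1 and LF 6, at 130 and 102.3 CPM, lay within the HF range. None of the members of these 3 lists was at 0 in all eWAT libraries.

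Fgf13 being best known from neurons, 6 neuronal miRNAs were read as well, again beside 19.6% of all miRNAs called higher and 15.2% lower. Of the 4 tested, 2 were called lower in HF against LF and 0 higher (edgeR; also 0 at an unadjusted p below 0.05 and 0 by DESeq2). Their sum ran from 566.7 to 913 CPM in LF, 545 to 772 in HF and 476 to 615 in HFLF, so the diets overlapped. Of 3 fibroblast miRNAs, 1 was called higher, and of 4 striated muscle miRNAs tested 3 were called lower. Of 2 endothelial miRNAs edgeR called 0 (0 at an unadjusted p below 0.05; DESeq2 called 2 lower), of 2 hepatocyte miRNAs tested 1 was called lower, and of 6 germ cell miRNAs 2 were called lower. These small counts were not stable. The germ cell count fell to 0 when LF 4, LF 5 or any HF library other than HF 1 was left out, and the neuronal count of 2 lower to 1 without any 1 of LF 2, LF 3 or HF 2 to HF 6. The hepatocyte count fell to 0 without LF 4, LF 5 and HFLF 4 together, and the fibroblast count rose to 2 without HF 2, HF 5 or HF 6 and to 3 with total counts.

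Within a diet, no relation of miR-504-5p to these sums passed the test. Over 9 relations (3 lists in 3 diets, n = 6 each), the smallest exact permutation p of Pearson's r was 0.0694 (Benjamini-Hochberg adjusted 0.625), for the epithelial sum in HFLF. There r was -0.96 and Spearman's rho -0.43 (exact permutation p = 0.419, adjusted 1). Without the 2 libraries farthest from the median sum, HFLF 2 and HFLF 4, r was -0.32, and without HFLF 4 alone it was -0.10, so the value rests on HFLF 4. For the epithelial sum r was 0.03 in LF and 0.18 in HF, and 0.47 and 0.13 without the 2 farthest libraries. For the leukocyte sum r was -0.25 in LF, -0.31 in HF and -0.10 in HFLF, and without the 2 farthest libraries 0.68, 0.06 and 0.11. For the adipocyte sum it was -0.04, 0.52 and 0.06, and without them 0.04, 0.69 and 0.89. These shifts, some with a change of sign, show how little 6 libraries fix such a value. With 6 libraries a diet, only a very close relation could have passed, and the part of cell composition in the diet difference was not tested.

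**Figure D4:**
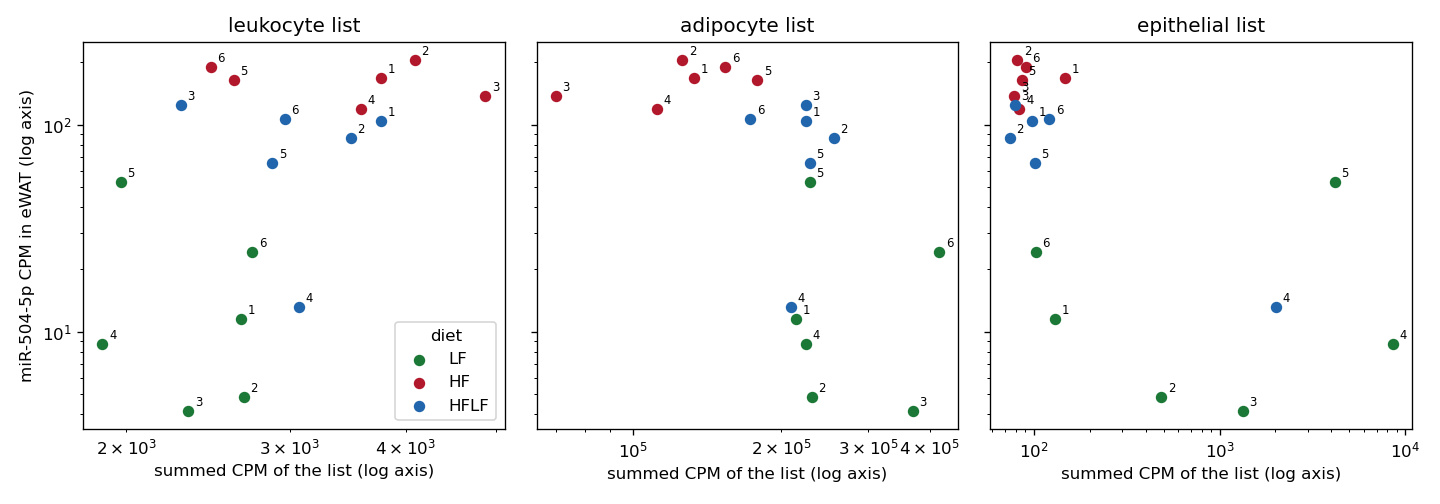
CPM of miR-504-5p against the summed CPM of the leukocyte, adipocyte and epithelial lists in 18 eWAT libraries, both axes logarithmic; colours are diets and numbers replicates. LF 4, LF 5 and HFLF 4 have the highest epithelial sums and hold 8.75, 52.9 and 13.1 CPM of miR-504-5p.

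LF 5 and HFLF 4 lie at opposite ends of their diets in miR-504-5p, and both have a high epithelial sum. Their germ cell sums were 921 and 363 CPM, where all eWAT libraries ran from 15.7 to 1999. Their hepatocyte sums were 9250 and 1712 CPM, where all ran from 168 to 9250. Whether other cells in the sample bear on miR-504-5p in these libraries was not tested. LF 5 was the highest LF library and HFLF 4 the lowest HFLF library. LF 4, with the highest epithelial sum of all, lay inside the range of the other LF libraries.

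The 10 miRNAs whose levels followed miR-504-5p most closely over the 18 eWAT libraries were miR-149-5p, miR-1983, miR-15b-3p, miR-7688-5p, miR-298-5p, miR-335-3p, miR-296-3p, miR-674-3p, miR-15b-5p and miR-34a-5p. Their Spearman's rho ran from 0.91 down to 0.85, where the median over 570 miRNAs was 0.05. None of the 10 is encoded on X. The libraries share their diets and scaling, so rho mostly restates the diet pattern and is given as a description.

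Within diets the 10 separated. The Pearson r of deviations from the diet mean was 0.91 for miR-1983, 0.86 for miR-298-5p and 0.81 for miR-296-3p, and 0.02 or below for miR-15b-3p, miR-674-3p and miR-15b-5p. For miR-1983 it was the highest of all 570. miR-1983 held 13.9 ± 11.0 CPM in LF, 63.5 ± 24.7 in HF and 46.5 ± 20.9 in HFLF (SD, n = 6). miR-298-5p held 10.2 ± 11.2, 40.0 ± 17.6 and 29.0 ± 11.7 CPM. miR-335-3p, encoded in an intron of the imprinted gene Mest, held 183 ± 125, 849.7 ± 299 and 304 ± 97.7 CPM, with 0.55. With the HF libraries left out, rho was 0.94 for both miR-1983 and miR-298-5p over 12 libraries. The rest of the 10 ran from 0.67 (miR-15b-5p) to 0.85 (miR-296-3p). These 12 libraries still span LF and HFLF, so that rho is not a relation within diets and still holds their difference. Without LF 4, LF 5 and HFLF 4, rho was 0.81 for miR-1983 and 0.85 for miR-298-5p. The r of deviations is not given without these libraries. miR-505-3p came 35th with a rho of 0.75 and 0.03 within diets, and miR-505-5p 105th with 0.53 and -0.01.

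For eWAT as a whole, 0 of 571 miRNAs (0%) were called in HFLF against LF by edgeR, with 65 at an unadjusted p below 0.05 and 10 called by DESeq2. In liver edgeR called 0 of 422 (0%) in HFLF against HF, with 65 at an unadjusted p below 0.05 and 15 by DESeq2. It called 0 of 422 (0%) in HFLF against LF, with 51 at an unadjusted p below 0.05 and 4 by DESeq2.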

How the data were processed

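Small RNA libraries (NEXTFLEX Small RNA-seq Kit v3) were processed with cutadapt and Bowtie on GRCm38.p6, per the submitters' processing notes, without versions; the counting program is not given in the sources used here. The authors deposited raw counts per mature miRNA. The eWAT table also holds 18 further columns, identical to the liver columns, which were not used; sperm values were not used here.

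Each tissue was fitted with edgeR 4.0.16 in R 4.3.3 (filterByExpr, TMM, quasi-likelihood test, 3 diets in 1 fit), leaving 571 miRNAs in eWAT and 422 in liver, with Benjamini-Hochberg adjustment over each, 2-sided. A joint fit of both tissues tested 595; the planned test of miR-504-5p in it is not given, since its selection fixed the outcome. The SE of an edgeR log2 fold change was its absolute value divided by the square root of the F of the quasi-likelihood test. A prior count of 2 entered log2 CPM. The limit for a count of 0 is 3 reads. Alternatives included DESeq2 1.42.0. Fits were tested on simulated data. The hairpin was folded with ViennaRNA 2.7.2; permutations used SciPy 1.17.1.

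Named miRNAs were both miR-504 arms, both miR-505 arms, miRNAs sharing the seed, and the 10 with the highest rho. An exact permutation test of the arm ratio had been planned; since the selection used both arms' diet values, its p-values are not given, a choice made after they had been computed. The alternatives for the lists, the spread within a diet, miR-505 against liver, the named miRNAs and the likeness ranking, and the arm ratio without LF 4, LF 5 and HFLF 4, were added after seeing the data. Some planned lists are not reported here. Members and lists were chosen with earlier results of these data known.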

Additional observations from a re-analysis of the deposited data

Results flagged for a closer look

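Of 24 groups of 6 libraries checked, 3 held a library far from the others: its gap to the nearest, divided by the range of the group, exceeded 0.625, Dixon's critical value at the 95% level. By that level chance alone lists about 1 in 20 groups. miR-504-3p stood at 0.494 CPM in HFLF 3, which is 5 reads. The epithelial sum stood at 147 CPM in HF 1 and at 2019 CPM in HFLF 4. The low miR-504-5p level of HFLF 4 and the high one of LF 5 did not meet this criterion in CPM. The check is not given on the log2 scale, so it does not show that HFLF 4 is ordinary there. On that scale the HFLF SD was 1.20 with HFLF 4 and 0.36 without it.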

How the results depend on the processing

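The miR-504-5p fold changes kept their direction in all 57 alternatives. They moved by less than 1 SD of log2 CPM among libraries, pooled over the compared diets (1.00, 0.88 and 1.30). That limit is wider than the SEs of 0.60, 0.55 and 0.57. Leaving out single libraries gave 3.01 to 3.97 for HF against LF, -1.15 to -0.80 for HFLF against HF and 2.01 to 2.97 for HFLF against LF. Total counts raised the eWAT against liver value in each diet. It went from 5.60 to 6.80 in LF, from 9.26 to 10.62 in HF and from 6.80 to 8.04 in HFLF. Only the HF move exceeded 1 SD, and the other 50 alternative values moved by less. The replicate numbers did not consistently pair the libraries, with correlations over 0.1 in at most 2 of 6 pairs of a comparison. Single pairs in eWAT were strong. In HFLF against LF, replicates 1 and 4 had 0.701 and 0.706. Replicate 1 had -0.776 in HF against LF and -0.696 in HFLF against HF. With a replicate block the log2 fold changes were 3.57, -1.09 and 2.48. That fit called 171, 130 and 0 miRNAs in the eWAT contrasts against 199, 148 and 0. Total counts called 205 higher and 53 lower in HF against LF, against 112 and 87.

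Other counts moved, and the cause was not tested. In HFLF against HF in eWAT, no filter gave 89, and leaving out single libraries 91 to 160. In HFLF against LF in eWAT, DESeq2 gave 10, leaving out LF 4, LF 5 and HFLF 4 gave 7, and single libraries 0 to 12 (12 without HFLF 4, 6 without LF 5). In liver HF against LF (24), total counts gave 61, DESeq2 47 and single libraries 16 to 49. In liver HFLF against HF (0), RLE factors gave 1, no filter 9, DESeq2 15 and single libraries 0 to 6; in HFLF against LF (0), no filter gave 15, DESeq2 4, the 2 diets alone 2 and single libraries 0 to 1.

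The arm ratio difference of HFLF against HF (0.36) turned to -0.04 with 1 added, and ran from -0.16 to 0.79 leaving out single libraries. Pearson's r changed sign for the leukocyte sum in HF with total counts (0.03). Leaving out single libraries it ran from -0.50 to 0.26 (leukocyte, LF), -0.32 to 0.33 (leukocyte, HFLF), -0.48 to 0.31 (adipocyte, LF), -0.34 to 0.58 (adipocyte, HFLF) and -0.52 to 0.30 (epithelial, LF). Depth limits both arms in liver and the 3p arm everywhere.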
